A study of Mus musculus with 11 samples.

Results

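The Toll-like receptors and their adaptor Myd88 were followed in fibroblasts sorted from mammary glands at 3 stages of tumour progression and from normal glands. The members were the 10 genes Tlr1 to Tlr9 and Myd88, chosen by name. A gene was measured where a probe set carried its symbol as the only one, and 9 of the 10 were, each with 1 probe set, out of 19938 genes in all. Tlr5 was not analysed here. The data are 11 Affymetrix Mouse Gene 1.0 ST arrays, and every value below is log2 expression unless another unit is given. Carcinoma fibroblasts (arrays D3, D4 and D10) came from MMTV-PyMT mice of 9 weeks and advanced carcinoma fibroblasts (D8, D9 and D11) from MMTV-PyMT mice of 12 weeks. These 6 arrays together are called CAFs (cancer-associated fibroblasts). Hyperplasia fibroblasts (D6, D7 and D12) came from MMTV-PyMT mice of 4 weeks, and normal fibroblasts (D2 and D5) from glands of FVB/n mice of 8 weeks. All mice were female, and the labels give FVB/n as the source of every sample. Advanced carcinoma is called late carcinoma in the labels.

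The PyMT transgene (polyoma middle T antigen) is driven in mammary epithelium by the viral MMTV promoter, so the fibroblasts themselves are not the transformed cells. Each array holds the cells of a separate cohort of pooled mice. Cells were taken straight from tissue by a sort for CD140a+ cells (the receptor PDGFRa) that lack the macrophage surface antigen encoded by Adgre1, to which the labels add EpCAM-. Stage and age cannot be told apart, since each stage has its own age.

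Toll-like receptors are transmembrane sensors of microbial molecules and of molecules released from damaged tissue. Tlr1, Tlr2, Tlr4 and Tlr6 sit mainly at the cell surface and bind lipids and lipoproteins, whereas Tlr3, Tlr7, Tlr8 and Tlr9 sit in endosomes and bind nucleic acids. Every one of these receptors but Tlr3 signals through Myd88, which recruits IRAK kinases and leads to NF-kB and the transcription of cytokines such as pro-IL-1b. Tlr3 signals through TRIF (Ticam1), which Tlr4 uses as well. Macrophages, dendritic cells and B cells are rich in several of these receptors, and fibroblasts are known for responding to ligands of Tlr2, Tlr3 and Tlr4.

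The arrays carried signs of other cells that bear on what follows. Over 10 fibroblast markers the mean level per array was 9.23 to 10.88 in CAFs, with the lowest value in carcinoma D4, and 10.69 to 11.12 in normal and hyperplasia fibroblasts. Of the 10, 0 passed the test (limma) and 0 passed by ordinary one-way contrasts. Such contrasts are the kind of test the methods name, here with 2 groups and adjusted p-values. At an unadjusted p under 0.05 by limma, 3 were lower in CAFs: Pdgfra (-0.66), Col3a1 (-0.77) and Dcn (-0.23). Pdgfra and Col3a1 differed by over 1.5-fold, which the study also required. Without D4, 5 of the 10 were lower in CAFs. Over 12 macrophage markers the mean level was 6.03 to 7.90 in CAFs and 4.78 to 6.01 in normal and hyperplasia fibroblasts, and 10 of the 12 were higher in CAFs. Among these was Adgre1, whose product the sort selected against, which averaged 6.46 in CAFs and 4.14 in the others (difference 2.32, SE 0.50, limma adjusted p = 0.00719). Carcinoma D4 and advanced carcinoma D8 and D9 were the 3 arrays highest in macrophage markers, at 7.50, 7.73 and 7.90. Of the luminal epithelial markers 9 of 10 were higher in CAFs, at means of 8.19 to 9.29 in CAFs and 6.11 to 7.63 in the others, and of the basal epithelial markers 3 of 5, at 5.78 to 7.05 in CAFs and 4.97 to 6.21 in the others. Epcam, whose product the labels give as sorted against, was among the luminal markers that were higher. It averaged 9.33 in CAFs and 7.17 in the others (difference 2.16, SE 0.34, limma adjusted p = 0.00149). Of the 8 neutrophil markers 1 was higher, Ltf, at 9.61 in CAFs and 6.70 in the others. A further 1 was lower, Ly6g, at 4.17 in CAFs and 4.41 in the others, and the median difference of the list was 0.06. D4, D8 and D9 were also the 3 arrays highest in both epithelial lists and in the mean of the neutrophil list. Leaving them out did not remove these signs: 5 of the 12 macrophage markers, Adgre1 among them, 7 of the 10 luminal and 1 of the 5 basal markers were still higher in CAFs. The B cell list stood at 5.67 to 7.11 in CAFs and 6.63 to 8.38 in the others with 3 of 5 lower, and the T and NK cell list at 5.41 to 6.89 in CAFs and 5.89 to 8.20 in the others with 3 of 8 lower and 1 higher. With a term for 2 tied arrays, described below, 1 B cell and 1 T and NK cell marker were lower, by ordinary contrasts 1 B cell and 0 T and NK cell markers passed, without D4 there were 5 lower in each list, and without normal D2 and hyperplasia D12 there were 0 lower in each. The dendritic cell list stood at 5.19 to 5.79 in CAFs and 5.34 to 6.11 in the others, with 3 of 8 lower and 1 higher. Both lymphocyte lists and the dendritic cell list were highest in D2 and D12. Leaving these out therefore had to lower the list means of normal and hyperplasia fibroblasts. These marker counts stand beside 24.9% of all genes called by limma in CAFs against the others, and 20.3% with the term for the tied arrays. No share was computed for ordinary contrasts. Of all genes 23.6% were called without D4, 19.7% without D2 and D12, and 9.57% without D4, D8 and D9. The values are on a log2 scale with no true zero, so no marker can be said to be absent. In sorted bulk cells, fewer cells of a type and less RNA per cell cannot be told apart.

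The deposited values of D2 and D11 are tied, since in each probe set their average equals the average of the remaining 9 arrays (largest gap of the sum 0.000144), so the 11 arrays hold 10 independent columns. The labels and methods name no step that does this. Results were therefore also computed with a term for these 2 arrays and without them.

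CAFs were first set against normal and hyperplasia fibroblasts together (6 arrays against 5). Of the 9 members, 2 were higher in CAFs and none was lower: Tlr8, by 2.89-fold, and Tlr3, by 1.4-fold. Both are endosomal RNA sensors. By the same limma test 24.9% of all genes passed, 2402 of them higher and 2559 lower, so the count of members was close to the background of all genes. The median difference over the 9 members was 0.08, and over all genes -0.04. The other 7 members did not pass, and for none of the 9 were the groups without overlap, as was so for 7.77% of all genes in the higher direction and 7.14% in the lower. With a term for the tied arrays the same 2 members passed, against 20.3% of all genes. Without carcinoma D4 and advanced carcinoma D8 and D9, the arrays highest in macrophage and epithelial markers, 0 of the 9 passed, against 9.57% of all genes. Macrophage and luminal markers were still higher in the remaining CAF arrays, so this is not a comparison at equal levels of those markers. D4, D8 and D9 were also the highest CAF arrays in Tlr3, Tlr7 and Tlr8. Leaving them out therefore had to lower these differences.

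**Figure D1:**
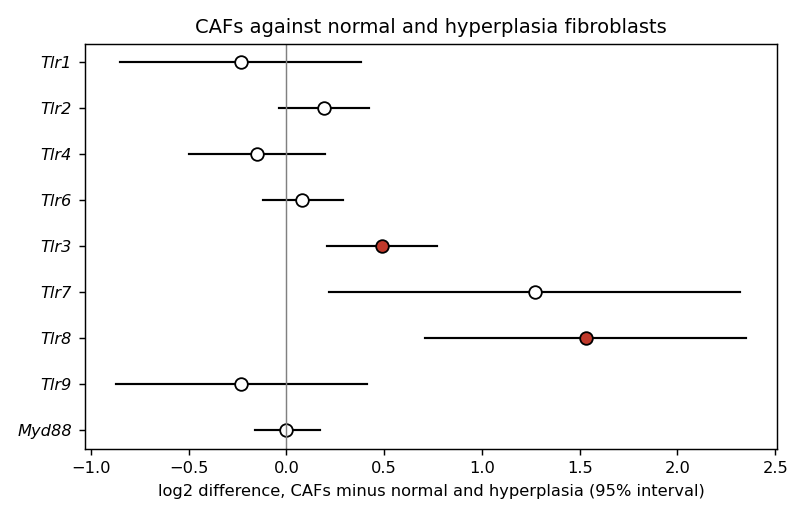
Difference between CAFs (6 arrays) and normal and hyperplasia fibroblasts (5 arrays) for each of the 9 measured members, as CAFs minus the others in log2 units, with the 95% interval from the limma fit as a bar. Filled points, Tlr3 at 0.49 and Tlr8 at 1.53, have an adjusted p below 0.05, and the interval of Tlr7 (0.22 to 2.32) lies above 0 although its adjusted p is 0.0729.

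Tlr8, an endosomal receptor that binds single-stranded RNA in human cells and is less responsive in the mouse, had the largest difference of the 9 members. It measured 4.74, 6.34 and 4.65 in carcinoma D3, D4 and D10 and 6.32, 6.36 and 5.04 in advanced carcinoma D8, D9 and D11, against 3.89, 3.99 and 3.82 in hyperplasia D6, D7 and D12 and 4.72 and 3.81 in normal D2 and D5. Of the 6 CAF arrays 5 lay above every other array, and the exception, carcinoma D10, lay just below normal D2. The CAFs split among themselves, with D4, D8 and D9 above 6 and the other 3 close to or below 5. Tlr8 averaged 5.57 ± 0.85 in the 6 CAF arrays and 4.04 ± 0.38 in the 5 other arrays (mean ± SD, as for every member below), a difference of 1.53 (SE 0.37, 95% interval 0.71 to 2.35, limma adjusted p = 0.0135). Its mean over all arrays, 4.88, lay below the median level of all genes (5.64). The 3 arrays highest in Tlr8 were the 3 highest in macrophage, luminal and basal epithelial markers, and the part of these in the Tlr8 difference was not tested. Without these 3 arrays the difference was 0.76 (SE 0.21, 95% interval 0.28 to 1.24, adjusted p = 0.0564).

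Tlr7, which lies next to Tlr8 on the X chromosome and binds single-stranded RNA in endosomes, was high in the same 3 arrays. It measured 6.0, 7.74 and 5.89 in carcinoma D3, D4 and D10 and 7.35, 7.60 and 5.81 in advanced carcinoma D8, D9 and D11, against 4.72, 5.20 and 6.14 in hyperplasia D6, D7 and D12 and 6.5 and 4.75 in normal D2 and D5. D4, D8 and D9 lay above every other array, while the other 3 CAF arrays lay within the range of normal and hyperplasia fibroblasts. Within that range normal D2 and hyperplasia D12, the arrays highest in lymphocyte and dendritic cell markers, were the highest. The means were 6.73 ± 0.92 in CAFs and 5.46 ± 0.81 in the others, and the difference of 1.27 (SE 0.48, 95% interval 0.22 to 2.32) missed the threshold (limma adjusted p = 0.0729). Without D4, D8 and D9 the Tlr7 difference was 0.44 (adjusted p = 0.557). Without D2 it was 1.53 (adjusted p = 0.0444), and without D2 and D12 it was 1.84 (adjusted p = 0.0307). Each of these fits left out the highest arrays of a group. The direction of these changes was therefore fixed in advance. The part of macrophage, epithelial, lymphocyte or dendritic cell markers in these values was not tested.

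Tlr3, the endosomal receptor for double-stranded RNA, showed a smaller difference with less spread. It measured 7.62, 8.31 and 7.71 in carcinoma D3, D4 and D10 and 7.84, 8.02 and 7.81 in advanced carcinoma D8, D9 and D11, against 7.40, 7.65 and 7.22 in hyperplasia D6, D7 and D12 and 7.52 and 7.20 in normal D2 and D5. Of the 6 CAF arrays 5 lay above every other array, and carcinoma D3 lay just below hyperplasia D7. Carcinoma and advanced carcinoma had nearly the same mean, 7.88 and 7.89. The means were 7.89 ± 0.25 in CAFs and 7.40 ± 0.19 in the others, a difference of 0.49 (SE 0.13, 95% interval 0.21 to 0.77, limma adjusted p = 0.0174). The highest Tlr3 value was that of D4, followed by D9 and D8, the arrays highest in macrophage and epithelial markers, whose part in the difference was not tested. Without D4, D8 and D9 the difference was 0.32 (95% interval 0.06 to 0.57, adjusted p = 0.115), and without D2 and D12 it was 0.47 (adjusted p = 0.062). Both adjusted p-values rest on fewer arrays than the first.

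Tlr9, the endosomal receptor for unmethylated CpG DNA, followed neither of these. Its range was 4.69 to 6.01 in CAFs (median 5.24) and 4.72 to 6.16 in normal and hyperplasia fibroblasts (median 5.69), and the difference of -0.23 had an interval of -0.87 to 0.41 (limma adjusted p = 0.598). Its 4 highest arrays were normal D2 at 6.16, carcinoma D4 at 6.01, hyperplasia D12 at 5.92 and advanced carcinoma D9 at 5.78. Without D2 and D12 the difference was 0.10, and without D4, D8 and D9 it was -0.65, so its sign depended on which arrays were counted. Both fits left out the highest arrays of a group, so the direction of each change was fixed in advance. Like Tlr8, its mean over all arrays (5.43) lay below the median level of all genes.

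The RefSeq windows around the start sites of the 2 members that passed are shown because these are the members the comparison turns on. A window holds 250 bases before and 50 from the start on (RefSeq, GRCm38.p6, printed 5′ to 3′ on the strand of the gene). Such windows were given for 7 of the 9 measured members, and Tlr4 and Tlr7 had none. Capitals mark matches on either strand to 3 motifs. These were GAGGAA, the core bound by PU.1 (a transcription factor of myeloid and B cells, whose core holds the GGAA shared by ETS factors), GAAA, any 2 bases and GAAA again, the core of the interferon-stimulated response element, and GGG, any 5 bases and CC, the frame of an NF-kB site. They occur in 28.3%, 3.44% and 50.8% of 32851 such windows. The Tlr3 window is chr8:45410331-45410630 and the Tlr8 window chrX:167264280-167264579, both on the minus strand.
Tlr3: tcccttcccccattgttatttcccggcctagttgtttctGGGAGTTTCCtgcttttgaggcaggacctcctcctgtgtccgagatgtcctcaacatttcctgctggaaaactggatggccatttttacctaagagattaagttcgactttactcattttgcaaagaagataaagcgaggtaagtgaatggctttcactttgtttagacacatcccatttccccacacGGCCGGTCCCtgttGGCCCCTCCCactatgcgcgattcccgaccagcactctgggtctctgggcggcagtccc
Tlr8: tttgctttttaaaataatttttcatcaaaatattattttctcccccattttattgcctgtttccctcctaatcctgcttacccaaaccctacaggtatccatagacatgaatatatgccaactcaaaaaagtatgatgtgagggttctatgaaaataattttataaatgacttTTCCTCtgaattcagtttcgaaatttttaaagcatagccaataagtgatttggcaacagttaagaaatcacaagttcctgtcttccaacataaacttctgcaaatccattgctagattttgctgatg
The Tlr3 window held 3 matches to the NF-kB frame, which begin 211, 23 and 9 bases before the start and do not overlap. The Tlr8 window held 1 match to the PU.1 core, on the opposite strand and 77 bases before the start. Neither motif was particular to the members that passed. Of the 7 members with a window, 3 held the PU.1 core (Tlr8, Tlr1 and Tlr9) and 3 the NF-kB frame (Tlr3, Tlr2 and Tlr6). These members have 9 windows in all, and each of the 2 motifs lay in 3 of them, beside 28.3% and 50.8% of all windows. The interferon-stimulated response element core lay in 2 of the 9 windows, those of Tlr6 and Myd88, beside 3.44% of all windows. A match describes letters in a window and is not evidence of binding.

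The 4 surface receptors showed no difference between CAFs and the others that passed. Tlr4, the receptor for lipopolysaccharide, measured 8.20, 7.85 and 8.46 in carcinoma D3, D4 and D10 and 7.75, 7.78 and 7.83 in advanced carcinoma D8, D9 and D11, against 8.09, 8.29 and 7.65 in hyperplasia D6, D7 and D12 and 8.26 and 8.34 in normal D2 and D5. The advanced carcinoma arrays lay within 0.08 of each other and below both normal arrays, but hyperplasia D12 was lower still. The difference between CAFs and the others was -0.15 (95% interval -0.50 to 0.20, limma adjusted p = 0.523).

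Tlr2, which pairs with Tlr1 or Tlr6 to bind bacterial lipoproteins, was 6.59 to 7.15 in CAFs (median 6.81) and 6.38 to 6.86 in the others (median 6.67). Its difference of 0.19 had an interval of -0.04 to 0.42 (adjusted p = 0.207). The 2 arrays above all normal and hyperplasia arrays were advanced carcinoma D8 at 6.96 and D9 at 7.15. Tlr6 was 5.56 to 6.06 in CAFs and 5.56 to 5.79 in the others, with a difference of 0.08 (95% interval -0.12 to 0.29, adjusted p = 0.535). The 3 carcinoma arrays (5.93, 5.81 and 6.06) lay above every other array, though D4 at 5.81 only just above hyperplasia D12 at 5.79. They did not overlap the 3 advanced carcinoma arrays (5.56, 5.60 and 5.70), as was so for 12.3% of all genes. That stage comparison of Tlr6 did not pass (limma adjusted p = 0.884). Tlr1 was 5.21 to 6.31 in CAFs and 5.38 to 6.75 in the others, with a difference of -0.23 (95% interval -0.85 to 0.38, adjusted p = 0.573). Its highest values were those of hyperplasia D12 (6.75) and normal D2 (6.46), the arrays highest in lymphocyte and dendritic cell markers, followed by carcinoma D4 (6.31). Without D2 and D12 the Tlr1 difference was 0.19, and leaving out the highest arrays of that group had to raise it. The part of these markers was not tested.

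Myd88, the adaptor shared by all these receptors but Tlr3, was the most even member across groups. It measured 8.39 to 8.68 in CAFs and 8.36 to 8.67 in the others, with means of 8.52 ± 0.13 in CAFs and 8.51 ± 0.11 in the others. The difference was 0.00 (SE 0.07, 95% interval -0.16 to 0.17, limma adjusted p = 0.97), and with median-centred arrays the interval was -0.23 to 0.06.

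Stage by stage, the 9 members gave a single call in 6 pairwise comparisons. Tlr8 was higher in advanced carcinoma, at 5.91 ± 0.75, than in hyperplasia, at 3.90 ± 0.09 (SD, n = 3 each), by 2.01 (SE 0.50, 95% interval 0.88 to 3.13, limma adjusted p = 0.0289), beside 14.5% of all genes called in that comparison. The 3 advanced carcinoma arrays lay above all 3 hyperplasia arrays, and in 42.1% of all genes these stages did not overlap. At an unadjusted p under 0.05 there were 3 members, beside 31.4% of all genes. The call was lost, with the same direction, when any 1 of D6, D7, D12, D8 or D9 was left out (adjusted p 0.0786, 0.0812, 0.0657, 0.111 and 0.114, in the same order), and 0 members passed by ordinary one-way contrasts. Without carcinoma D4, Tlr3 passed as well as Tlr8. The stage means of Tlr8 were 4.26 (normal), 3.90 (hyperplasia), 5.24 (carcinoma) and 5.91 (advanced carcinoma). No neighbours in this order passed the test: the differences were -0.36 for hyperplasia minus normal (adjusted p = 0.999), 1.34 for carcinoma minus hyperplasia (0.123) and 0.67 for advanced carcinoma minus carcinoma (0.893).

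Advanced carcinoma against normal gave 0 of 9 members by limma, where 5.61% of all genes passed, 0 by ordinary contrasts and 4 at an unadjusted p under 0.05, as did 22.6% of all genes. These 4 were Tlr8 (difference 1.64, adjusted p = 0.123), Tlr3 (0.53, adjusted p = 0.172), Tlr4 (-0.52, adjusted p = 0.168) and Tlr2 (0.33, adjusted p = 0.215). In Tlr2, Tlr3, Tlr4 and Tlr8 the 3 advanced carcinoma arrays and the 2 normal arrays did not overlap, which with so few arrays was so for 48.0% of all genes. Without carcinoma D4, Tlr3 and Tlr8 passed. Carcinoma against normal gave 0 of 9 by limma and 0 by ordinary contrasts, beside 0.938% of all genes, and 2 at an unadjusted p under 0.05, Tlr3 at 0.52 and Tlr6 at 0.24, beside 18.0% of all genes. Carcinoma against hyperplasia gave 0 by both tests, beside 9.25% of all genes, and 3 at an unadjusted p under 0.05 (Tlr8 at 1.34, Tlr3 at 0.46 and Tlr6 at 0.24), beside 28.0% of all genes. At the threshold the study used, an unadjusted p below 0.05 and over 1.5-fold, Tlr8 was called in advanced carcinoma against normal (10.6% of all genes were) and in carcinoma against hyperplasia (10.5%), and Tlr7 and Tlr8 in CAFs against the others (12.2%). Tlr8 was called at this threshold in advanced carcinoma against hyperplasia too, for which the share of all genes was not computed. These comparisons share arrays, so their values are not separate lines of evidence. The shares of all genes given for stages, here and below, are by limma, and none was computed for ordinary contrasts.

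Hyperplasia against normal gave 0 of 9 by limma and by ordinary contrasts, beside 0% of all genes, whose smallest adjusted p was 0.789, and 0 at an unadjusted p under 0.05, beside 4.22%. Advanced carcinoma against carcinoma also gave 0 by both tests and 0% of all genes, whose smallest adjusted p was 0.37. At an unadjusted p under 0.05, met by 5.64% of all genes, there were 2 members here, Tlr6 (difference -0.31, 95% interval -0.51 to -0.11, limma adjusted p = 0.884) and Myd88 (0.21, 95% interval 0.04 to 0.38, limma adjusted p = 0.884). Myd88 measured 8.68, 8.66 and 8.53 in advanced carcinoma and 8.39, 8.43 and 8.42 in carcinoma, without overlap, as was so for 12.3% of all genes. In the test for any difference among the 4 stages 0 of 9 passed by limma and by the ordinary test, beside 9.04% of all genes, with 3 at an unadjusted p under 0.05, beside 26.3% of all genes, and the smallest adjusted p that of Tlr8, 0.0888. Without carcinoma D4, Tlr8 passed this test.

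The genes that serve these receptors changed in both directions between CAFs and the others, and each count below stands beside the 24.9% of all genes called in this comparison (9.57% without D4, D8 and D9). Of 12 measured co-receptors, chaperones and further receptors, 4 were higher in CAFs and 2 lower, with a median difference of 0.06. Cd14, which hands lipopolysaccharide to Tlr4, averaged 7.89 ± 0.62 in CAFs and 5.45 ± 0.83 in the others (difference 2.44, limma adjusted p = 0.00167) and Lbp, the lipopolysaccharide-binding protein that loads it, 10.31 ± 0.13 in CAFs and 9.71 ± 0.20 in the others (0.61, adjusted p = 0.00159). All 6 CAF arrays lay above every other array in both. Tlr13, a mouse endosomal receptor for bacterial ribosomal RNA, was higher by 0.98 (adjusted p = 0.0241) and Tril, an accessory protein of Tlr4 and Tlr3, lower by 0.86, at 7.32 in CAFs and 8.18 in the others (adjusted p = 0.0296). Unc93b1, the chaperone that brings the nucleic acid receptors to endosomes, was 7.68 in CAFs and 7.13 in the others (0.55, adjusted p = 0.0396), and Cd36, a scavenger receptor that serves Tlr2 and Tlr6, 9.13 in CAFs and 10.16 in the others (-1.03, adjusted p = 0.0455). These 2 were named after their values were seen, and with the term for the tied arrays neither passed. Ly96, the Tlr4 partner that binds lipopolysaccharide, was 8.56 in CAFs and 8.61 in the others (adjusted p = 0.869). Without D4, D8 and D9, Cd14 and Lbp were the 2 genes of this list that passed, both higher. Cd14 is also a gene of monocytes and macrophages, of whose markers 5 of 12 were higher in CAFs without these arrays too.

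Among 17 adaptors and kinases, 5 were higher and 1 lower, with a median of 0.11. Irak2, a kinase recruited by Myd88, was 6.91 ± 0.31 in CAFs and 5.82 ± 0.35 in the others (difference 1.09, adjusted p = 0.00197), and Ikbke, which phosphorylates IRF3 downstream of TRIF, 6.84 ± 0.24 in CAFs and 7.75 ± 0.31 in the others (-0.91, adjusted p = 0.00211). In both genes the 2 groups did not overlap. Tab1 and Tab2, partners of the kinase TAK1, were higher by 0.26 (adjusted p = 0.0171) and 0.31 (adjusted p = 0.0215). Without D4, D8 and D9, Irak2 and Tab1 were higher and Ikbke lower. Ticam1, the adaptor of Tlr3, was 6.77 in CAFs and 6.89 in the others (adjusted p = 0.245). Of the 8 measured transcription factors (Nfkb2, Rel, Rela, Relb and the IRFs) 0 passed by limma, 0 by ordinary contrasts and 0 at an unadjusted p under 0.05.

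Of 10 negative regulators, 1 was higher and 4 were lower in CAFs (median -0.20). Tnip1, which restrains NF-kB together with A20, was 5.63 ± 0.10 in CAFs and 6.10 ± 0.15 in the others (difference -0.47, adjusted p = 0.00157). Tollip, an inhibitor of IRAK signalling, differed by -0.15 (adjusted p = 0.0162) and Dusp1, a phosphatase of MAP kinases, by -0.39 (adjusted p = 0.023), and in all 3 genes every CAF array lay below every other array. Sigirr, a decoy-like receptor that dampens Toll and IL-1 signalling, was higher by 0.64 (adjusted p = 0.0415, and 0.0596 with the term). Without D4, D8 and D9, Tnip1 was the 1 regulator that passed.

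Of 9 endogenous ligands, 2 were higher in CAFs and none lower, a share close to that of all genes (24.9%). Both are extracellular proteins reported to engage Tlr4 or Tlr2. Saa3, an acute-phase serum amyloid, was 5.85 ± 0.34 in CAFs and 4.61 ± 0.24 in the others without overlap (difference 1.24, adjusted p = 0.000649), and Tnc, the matrix protein tenascin C, 8.81 ± 0.89 in CAFs and 7.19 ± 0.70 in the others (1.62, adjusted p = 0.0215). Both also passed without D4, D8 and D9, as did Bgn. Of 15 target cytokines and related genes, 6 were higher and 1 lower, with a median of 0.58. Ccl3 and Ccl2, chemokines for monocytes, averaged 6.94 and 8.06 in CAFs and 5.40 and 6.17 in the others (differences 1.53 and 1.89, adjusted p = 0.0117 and 0.019), and Il1b, the precursor of the cytokine IL-1b, 6.48 in CAFs and 4.74 in the others (1.74, adjusted p = 0.0278). Ccl5, a chemokine that T and NK cells also make, was 7.86 ± 0.68 in CAFs and 9.51 ± 0.66 in the others (-1.66, adjusted p = 0.00866). Without D4, D8 and D9 none of these 4 targets passed and 1 other, Il6, did. The part of macrophage, epithelial and lymphocyte transcripts in these differences was not tested.

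**Figure D2:**
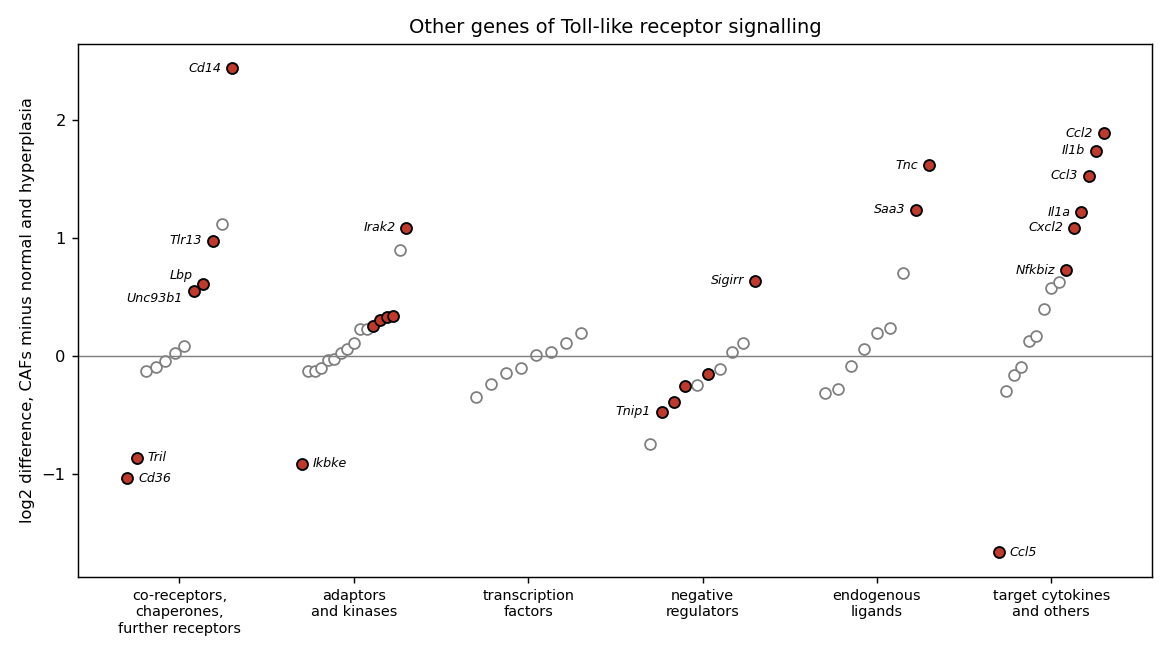
Difference between CAFs and normal and hyperplasia fibroblasts, in log2 units as CAFs minus the others, for the measured genes of 6 lists of Toll-like receptor signalling, ordered by size within each list. Filled points have a limma adjusted p below 0.05, and those with a difference beyond 0.5 and Tnip1 are named. The co-receptor Cd14, at 2.44, is the highest point, Ccl5, at -1.66, the lowest, and no transcription factor is filled.

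Against hyperplasia alone, advanced carcinoma gave 7 higher and 1 lower of the 15 targets, 3 higher and 1 lower of the 12 co-receptors and further receptors, 2 higher and 1 lower of the 17 adaptors and kinases, 2 higher of the 9 ligands, 1 lower of the 10 negative regulators and 0 of the 8 transcription factors, beside 14.5% of all genes. Carcinoma against hyperplasia gave 0 of the targets, 2 higher of the co-receptors and further receptors, 2 higher and 1 lower of the adaptors and kinases, 1 higher of the ligands, 2 lower of the negative regulators and 0 of the transcription factors, beside 9.25% of all genes. Whether the 2 stages differ in this was tested only gene by gene in advanced carcinoma against carcinoma, where no gene of any list passed.

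The genes whose levels ran closest to those of each member were read over the 11 arrays by Pearson's r, as a description. The arrays share the tie between D2 and D11 and fall into stages, so these coefficients do not come from independent samples. For Tlr8 they were Zdhhc21 (0.996), Msr1 (0.995) and Mmp12 (0.992), of which Msr1 encodes a scavenger receptor and Mmp12 an elastase, both well known from macrophages. For Tlr7 they were Pld4 (0.987), Alox5ap (0.986) and Atp8a1 (0.986). For Tlr1 they were St8sia6 (0.982), Runx3 (0.977) and Fyb (0.974), and for Tlr9 Pcgf5 (0.959), Rictor (0.955) and Serpinb10 (0.946). Tlr3 was closest to Nrtn (0.974), Tlr4 to Morf4l2 (0.976) and Myd88 to Snhg16 (0.948), while Tlr2 and Tlr6 had the lowest closest values, Arrdc4 at 0.923 and Sprr2f at 0.881.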

How the data were processed

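The values are those the authors deposited for 11 Affymetrix Mouse Gene 1.0 ST arrays: log2 expression of 35399 probe sets, which the authors made with the robust multi-average method (RMA) in Partek 6.5. Raw image files were not used here. Of the probe sets 21789 carried 1 gene symbol, 1621 several and 11989 none here. The brightest probe set of each symbol was kept (999 genes had more than 1), which left 19938 genes, with array medians of 5.28 to 5.39. The number of arrays limits the precision, and p-values measure the spread between the arrays of separate cohorts. The tied D2 and D11 do not add independent values to that spread.

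CAFs (6 arrays) were compared with normal and hyperplasia fibroblasts (5 arrays) in a fit with 2 groups, and stages in a fit with 4, by limma 3.58.1 in R 4.3.3, with Benjamini-Hochberg adjustment over all genes and a threshold of 0.05. The study's kind of test, a one-way ANOVA, was an alternative, with 2 groups for CAFs against the others and with adjusted p-values. Its cut-off, p under 0.05 before adjustment and more than 1.5-fold, was another, applied to the limma fits. The others were a term for the tied arrays D2 and D11, their removal, median centring, quantile normalization, leaving out dim genes (mean below the median of all genes), all probe sets in place of 1 a gene, trend and robust estimates, array weights, a contrast of stage means, the arrays of 2 stages only, and each array left out in turn. Fits without D4, D8 and D9 and without D2 and D12 were added after seeing the data. The pipeline was tested on simulated data.

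The members, gene lists and marker lists were chosen with earlier results of these data known. The text names all members, up to 4 genes of a list by the smallest p, and the 3 nearest genes of a member, of which some are left out. Ly96, Ticam1, Unc93b1, Cd36, Adgre1 and Epcam were added for their roles. Of the pathway symbols listed, Tlr11, Irak4, Traf3, Chuk, Nfkb1 and Il1rl1 were not analysed here.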

Additional observations from a re-analysis of the deposited data

Results flagged for a closer look

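Tlr8 in normal and hyperplasia fibroblasts was marked for 1 array that stood far from the others of its group. Normal D2 measured 4.72, while the other 4 arrays lay between 3.81 and 3.99, and the gap to the nearest of them was 0.799 of the whole range, above the critical value of 0.71 for 5 arrays. Members were tested in 18 groups in all, and chance alone marks about 1 in 20. Normal D2 is 1 of the 2 arrays whose values are tied, and its macrophage marker mean of 6.01 was the highest of the normal and hyperplasia arrays. Without D2 the Tlr8 difference between CAFs and the others was 1.70 (limma adjusted p = 0.0134), against 1.53 with it. Leaving out the highest array of that group had to raise the difference.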

How the results depend on the processing

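Tlr8 (where it was tested) and Tlr3 were higher in CAFs than in normal and hyperplasia fibroblasts in every alternative. Tlr3 ranged from 0.32 to 0.55 with adjusted p from 0.00774 to 0.115, and Tlr8 from 0.76 to 1.80 with adjusted p from 0.00607 to 0.0564. The count of 2 members became 1 (Tlr3) with dim genes removed, since that step took out Tlr8 and Tlr9 and left 7 members. It became 0 without D4, D8 and D9, and with single arrays left out it ranged from 2 to 3. Tlr7 was the third without D2 (1.53, adjusted p = 0.0444), and it also passed without D2 and D11 (1.72, adjusted p = 0.0358). Without D2 and D12 the 2 members were Tlr7 and Tlr8. They were the same 2 at the study's threshold, where Tlr3, at 1.4-fold, was not called.

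The single call of advanced carcinoma against hyperplasia became 0 with dim genes removed, by ANOVA contrasts and without D4, D8 and D9, which left advanced carcinoma with D11 alone, of the tied pair, assumed to vary like the other groups; it became 4 with array weights (Tlr2, Tlr3, Tlr7 and Tlr8) and 2 in a fit of just these stages (Tlr3 and Tlr8), and ranged from 0 to 2 with 1 array left out (2 without D4). Advanced carcinoma against normal gave 3 with array weights (Tlr3, Tlr4 and Tlr8), 1 at the study's threshold (Tlr8) and 2 in a fit of just these stages (Tlr3 and Tlr4), and 0 to 2 with 1 array left out (Tlr3 and Tlr8 without D4). Carcinoma against hyperplasia gave 1 with array weights (Tlr6) and 1 at the study's threshold (Tlr8), and advanced carcinoma against carcinoma 4 with array weights (Myd88, Tlr4, Tlr6 and Tlr8). The test over the 4 stages gave 5 with array weights, 3 at an unadjusted p under 0.05 and 0 to 1 with 1 array left out (Tlr8 without D4). Beyond the main fits, the share of all genes called was computed for only some alternatives. In CAFs against the others these were the term for the tied arrays and the study's threshold. The fits without D4, without D2 and D12, and without D4, D8 and D9 had it there too. Between stages it was the study's threshold, for advanced carcinoma against normal and carcinoma against hyperplasia. Counts in all other alternatives, array weights and ordinary contrasts among them, therefore cannot be set against all genes. The causes were not tested.

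Signs turned in members whose intervals cover 0. Myd88 was 0.00 without D2 and D11, -0.09 with median-centred arrays, -0.01 as a contrast of stage means, -0.07 without D4, D8 and D9, and -0.03 to 0.04 with 1 array left out. Tlr6 was -0.01 with median-centred arrays, which moved the median of all genes to -0.13, against -0.04 as deposited. Tlr4 was 0.03 without D4, D8 and D9. Tlr1 was 0.19 and Tlr9 0.10 without D2 and D12, and Tlr9 was 0.05 without D2 and D11. By ordinary contrasts 3 of the co-receptors and further receptors, 3 negative regulators and 3 targets passed between CAFs and the others, against 6, 5 and 7 by limma. Without D2 and D12 there were 2 negative regulators, 1 endogenous ligand and 4 targets, and without D4 there were 3 negative regulators and 4 endogenous ligands, against 5, 2 and 7 with all arrays. Of all genes 19.7% passed without D2 and D12, 23.6% without D4 and 24.9% with all arrays. The term for the tied arrays changed no count of members in any comparison. No paired analysis was possible because no replicate number is shared between groups.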
